A study of Mus musculus with 9 samples.

Results

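The vacuolar H+-ATPase (V-ATPase) and the lysosome were followed in RAW 264.7 cells through 41 genes, which were chosen by symbol from the 23282 gene rows of the series. Of these, 18 code for the proton pump (8 of its membrane sector V0, 8 of its cytosolic sector V1 and 2 accessory proteins), and 23 for the lysosome (4 membrane proteins, 8 cathepsins, 7 other hydrolases, 2 lipid carriers or activators and the transcription factors Tfeb and Tfe3). RAW 264.7 is a mouse macrophage line, labelled as BALB/c and as passage 30, that forms osteoclast-like cells when exposed to RANKL, the main cytokine of osteoclast differentiation. Each of 3 groups had 3 libraries. The negative control received RANKL alone at 50 ng/mL, and the surface protein group received RANKL at 50 ng/mL with 10 µg/mL of proteins extracted from the surface of the bacterium Propionibacterium freudenreichii MJ2. The heat-killed MJ2 group received 10000000 killed bacteria per mL. For its individual libraries the labels leave unstated whether RANKL was given as well. Treatment lasted 4 days in all groups. No untreated cells were analysed here, and the labels do not say that libraries of a group came from separate cultures, so p-values measure the spread between these libraries, which may be technical.

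The V-ATPase is a rotary pump. Its V1 sector hydrolyses ATP, and its V0 sector carries protons across the membrane, into lysosomes in all cells and, in osteoclasts, across the ruffled border onto bone. Lysosomal hydrolases work in the acid it makes, and osteoclasts release some of them, cathepsin K among them, onto the bone surface. Several subunits exist in alternative forms: of the a subunits, Tcirg1 (a3) is the form known from the osteoclast ruffled border, while Atp6v0a1 and Atp6v0a2 are used in other membranes. Of the d subunits, Atp6v0d2 is abundant in osteoclasts and Atp6v0d1 is found in most tissues. Tfeb, Tfe3 and Mitf are related transcription factors that bind the letters CACGTG in promoters of pump and lysosomal genes.

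The libraries were read from the 3′ end of mRNA, and the authors deposited log2 values. Raising 2 to a value and subtracting 1 gave adjusted reads, which summed to between 5930926 and 6503682 per library. Of the members, 40 reached 10 or more adjusted reads in all 9 libraries and were tested, while Ctsh, a cysteine protease, stayed at or under 5.86 adjusted reads in all 9 libraries and was not tested. The 6 macrophage markers summed to between 10774 and 13316 adjusted reads with RANKL alone, between 14710.1 and 16236 with surface proteins and between 18643 and 19771 with heat-killed MJ2, and the 4 lymphocyte markers to at most 2.89. The 8 osteoclast markers summed to between 17929 and 28287 with RANKL alone, between 4727 and 6888 with surface proteins and between 12339 and 14258 with heat-killed MJ2, with Calcr at or under 4.93 in every library. Reads of Ctsb, Npc1, Ctsz, Lamp1, Ctsa, Atp6v1e1, Atp6v0a2 and Atp6v0b are uncertain, since another gene lies across their 3′ end on the opposite strand and use of strand in the counting was not given in the sources used here, as are those of Ctsd, which shares its 3′ end with Gm49369 on the same strand. The osteoclast markers moved with the groups beside each result below, their part in the results was not tested, and in bulk RNA fewer cells of a type cannot be told apart from less RNA per cell.

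**Figure D1:**
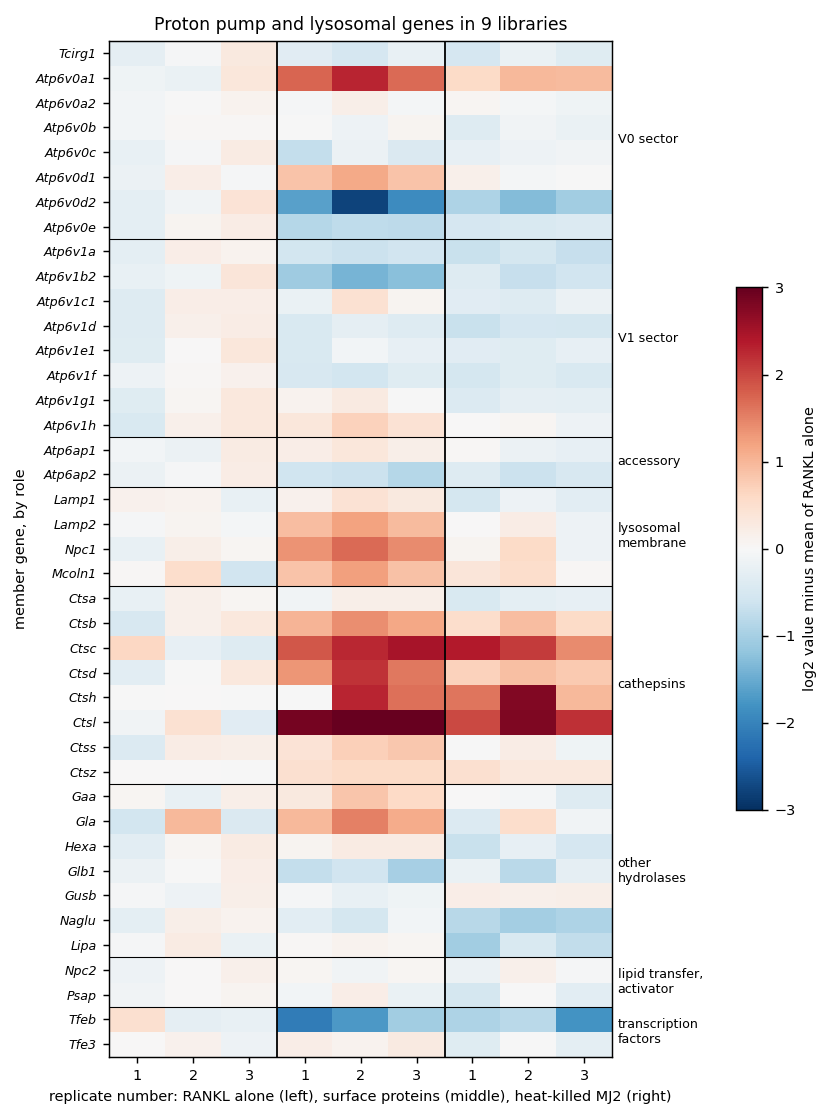
Heatmap of the 41 member genes (rows, ordered by role) in the 9 libraries (columns), coloured by the deposited log2 value minus the mean of the 3 libraries with RANKL alone, with colours ending at -3 and 3. Ctsl, Ctsc, Ctsd and Atp6v0a1 were above the RANKL-alone mean in every treated library, while Atp6v0d2 and Tfeb were below it in all of them, and the colours of Ctsh rest on at most 5.86 adjusted reads.

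Promoter windows from RefSeq (GRCm38.p6, 250 bases before to 50 after a start site) were matched by symbol for 32 of the 41 members. CACGTG, which reads the same on both strands, was in the windows of 13 of the 32 members (40.6%) and of 8.09% of the 27025 genes in the table. The overlapping longer form TCACGTG, searched on both strands, was in 12 of the 32 (37.5%) and in 4.29% of all genes. Members with CACGTG were found in each class of response to surface proteins, as 3 of 7 that increased, 3 of 5 that decreased and 7 of 20 that did not pass the test. The 5 windows below show this spread: Atp6v0d1 and Ctsd increased, Atp6v1a and Glb1 decreased, and Lamp1, with 4 sites, did not pass the test. Capitals mark CACGTG, and each run is the longest stretch of the window, to 20 bases after the start, that no GENCODE M21 transcript has as untranslated region.
Atp6v0d1 (chr8:105566048-105566314, minus strand): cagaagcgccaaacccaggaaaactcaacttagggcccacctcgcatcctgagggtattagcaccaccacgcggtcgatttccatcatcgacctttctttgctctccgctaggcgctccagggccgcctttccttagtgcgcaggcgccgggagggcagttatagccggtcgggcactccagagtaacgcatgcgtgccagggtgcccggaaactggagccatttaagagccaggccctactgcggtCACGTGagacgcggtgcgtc
Ctsd (chr7:142388039-142388077, minus strand): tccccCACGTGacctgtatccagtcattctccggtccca
Atp6v1a (chr16:44139306-44139461, minus strand): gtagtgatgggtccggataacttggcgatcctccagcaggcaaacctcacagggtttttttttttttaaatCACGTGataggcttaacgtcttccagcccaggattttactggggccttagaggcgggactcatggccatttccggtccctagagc
Glb1 (chr9:114400828-114401075, plus strand): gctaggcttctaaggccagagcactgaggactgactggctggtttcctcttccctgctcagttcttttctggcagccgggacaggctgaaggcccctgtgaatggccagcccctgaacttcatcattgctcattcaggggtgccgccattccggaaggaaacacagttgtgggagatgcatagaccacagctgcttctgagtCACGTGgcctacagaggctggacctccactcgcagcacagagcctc
Lamp1 (chr8:13158911-13159160, plus strand): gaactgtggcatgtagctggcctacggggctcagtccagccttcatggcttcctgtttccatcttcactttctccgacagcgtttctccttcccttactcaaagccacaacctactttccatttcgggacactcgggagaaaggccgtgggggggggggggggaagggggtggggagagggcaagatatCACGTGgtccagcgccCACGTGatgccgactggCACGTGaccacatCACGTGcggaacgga
The site of Atp6v0d1 began 3 bases before the start, that of Glb1 48 and that of Atp6v1a 131 bases before it, and the sites of Lamp1 lay 61, 45, 28 and 15 bases before it. Ctsd had another site 98 bases before the start, outside the stretch printed. For Atp6v1a the whole window, and for Ctsd the start and this site, lie inside the gene as GENCODE annotates it. The first 15 bases from the RefSeq start occurred in a GENCODE transcript of the gene for 26 of the 32 members. A match describes letters and not a bound site.

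The first comparison asked which members changed when surface proteins were added to RANKL. Of the 40 members tested, 9 increased and 7 decreased at an adjusted p under 0.05 (limma across all rows tested, Benjamini-Hochberg), where 15.9% of all 10874 rows increased and 13.2% decreased. The cathepsins Ctsl, Ctsc, Ctsd and Ctsb and the membrane proteins Npc1 and Lamp2 increased 2.05- to 8.63-fold, whereas the osteoclast-enriched pump subunit Atp6v0d2 fell to 23.3% and the transcription factor Tfeb to 32.6% of their RANKL-alone levels. With a fold change of at least 2 as well, 7 members increased and 3 decreased, beside 10.2% and 7.32% of all rows. The groups did not overlap for 22 of the 40 members and for 48.4% of all rows. Of the 18 pump genes, 2 increased and 5 decreased, with a median log2 fold change of -0.31. Those that decreased were 2 without replicate 2 or 3 of surface proteins or replicate 3 of RANKL alone, and 3 without replicate 2 of RANKL alone, while 2 increased in each of these fits. Of the 22 lysosomal genes tested, 7 increased and 2 decreased, with a median of 0.42, and 1 decreased without any 1 library other than replicate 1 of RANKL alone. The median over all rows was -0.01, and the difference between pump and lysosomal genes was not tested.

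**Figure D2:**
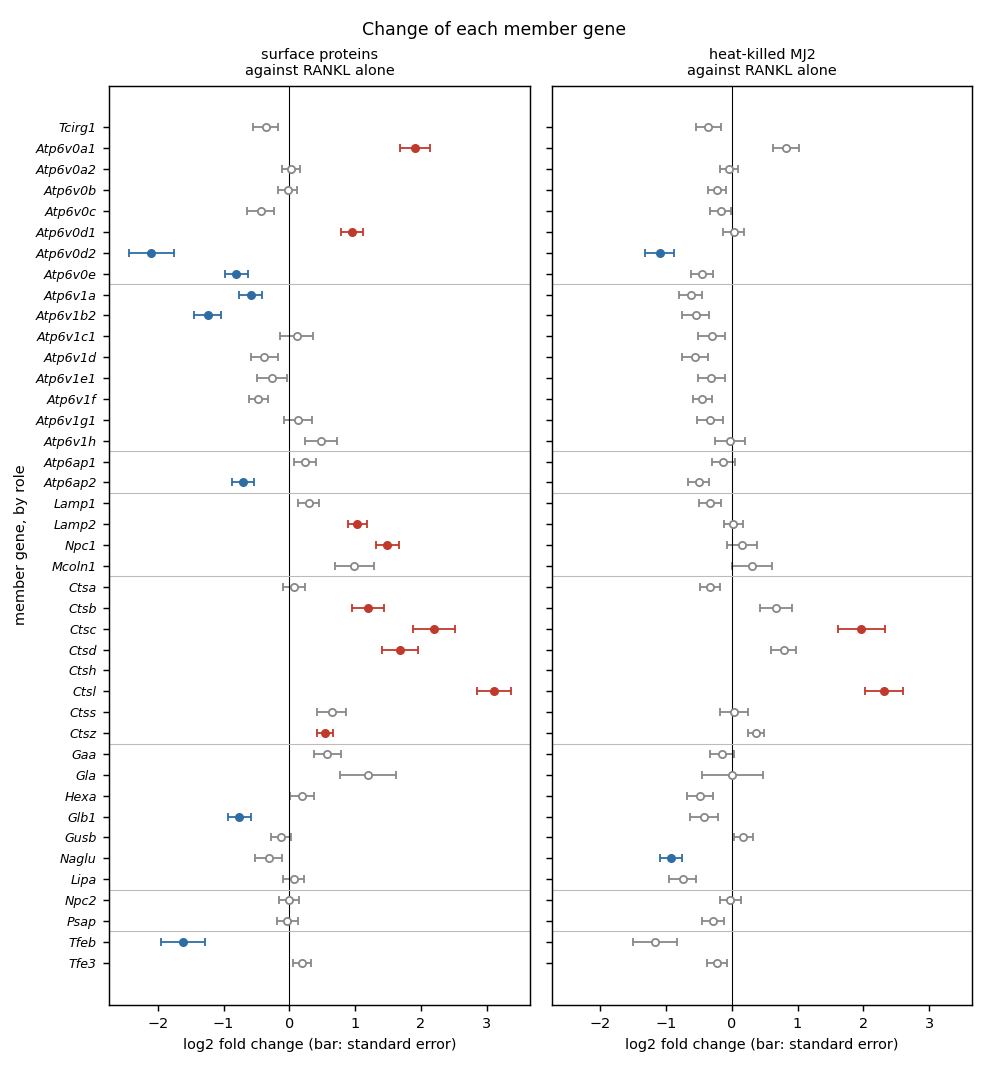
Log2 fold change of each member tested (points) with its standard error (bars) for surface proteins (left) and heat-killed MJ2 (right) against RANKL alone. Filled red points increased and filled blue points decreased at an adjusted p under 0.05, open grey points did not pass, and Ctsh has no point. Surface proteins moved 9 members up and 7 down, and heat-killed MJ2 moved 2 up and 2 down.

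In the V0 sector, which conducts the protons, the alternative d subunits went opposite ways, and of the a subunits Atp6v0a1 alone passed the test. Atp6v0d2 (chr4:19876841-19922605, minus strand) had 2954, 3363 and 4789.6 adjusted reads with RANKL alone and 1176, 528 and 972 with surface proteins (log2 fold change -2.10, SE 0.35, adjusted p = 0.0077). Its partner form Atp6v0d1 (chr8:105524465-105566047, minus strand) had 579, 757 and 640.4 with RANKL alone and 1191, 1432 and 1191 with surface proteins (log2 fold change 0.95, SE 0.17, adjusted p = 0.0095). Every library with surface proteins lay below every control library for the former and above for the latter. Atp6v0a1 (chr11:101009452-101063719, plus strand), the a1 form, rose from 139, 131 and 189.8 to 511, 742 and 489 adjusted reads (log2 fold change 1.91, SE 0.24, adjusted p = 0.0031), a 3.76-fold increase without overlap of the groups. The ruffled-border form Tcirg1 (chr19:3896050-3907133, minus strand) had 1912, 2253 and 2816 with RANKL alone and 1809, 1615 and 1983 with surface proteins, and its groups overlapped (log2 fold change -0.36, SE 0.19, adjusted p = 0.21). Atp6v0a2 had a log2 fold change of 0.03 (SE 0.14, adjusted p = 0.9).

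Among the remaining V0 genes, Atp6v0e, a small membrane subunit, fell from 3222, 4135 and 4559.6 to 2183, 2299.9 and 2269.8 adjusted reads (log2 fold change -0.80, SE 0.17, adjusted p = 0.017). Atp6v0b and Atp6v0c code for proteolipids of the proton-carrying ring. Neither passed the test, with log2 fold changes of -0.03 and -0.44, and reads of Atp6v0c are uncertain because GENCODE lists 2 processed pseudogenes of it.

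The V1 sector, which hydrolyses ATP, had 2 genes that decreased and none that increased, beside 13.2% and 15.9% of all rows. At an unadjusted p under 0.05, 0 of 8 increased as well, for which no share of all rows is given. Atp6v1b2 (chr8:69088646-69113711, plus strand), a nucleotide-binding B subunit, fell to 42.3%, from 5094, 5392 and 7637 to 2851, 2248 and 2479 adjusted reads (log2 fold change -1.24, SE 0.21, adjusted p = 0.0079). Atp6v1a, the catalytic A subunit, fell from 10542, 14888 and 13920.2 to 8889, 8346 and 8694 (log2 fold change -0.59, SE 0.17, adjusted p = 0.048). The other 6 did not pass, with log2 fold changes from -0.47 for Atp6v1f to 0.48 for Atp6v1h, a regulatory subunit. Atp6v1f passed as lower in 6 of 17 fits, with adjusted p from 0.0024 to 0.15, among them those with quantile normalization, equal totals or median centring, under each of which 6 pump genes decreased. Of the accessory proteins, Atp6ap2, also known as the (pro)renin receptor, fell from 3645, 4078 and 4803 to 2731, 2668 and 2286 (log2 fold change -0.70, SE 0.17, adjusted p = 0.024), and Atp6ap1 did not pass (log2 fold change 0.23, SE 0.17, adjusted p = 0.33). The calls of Atp6v0d2, Atp6v1b2, Atp6v0a1 and Atp6v0d1 held in all 17 fits, which are the test above and its alternatives, the 6 that leave out a library included. Atp6v0e passed in 14 of 17 fits, with adjusted p from 0.00012 to 0.052, and lost its call without replicate 2 or 3 of surface proteins or replicate 3 of RANKL alone. Atp6v1a passed in 9 of 17 fits, with adjusted p from 0.001 to 0.12, and of the fits without a library it passed only in the one without replicate 1 of RANKL alone. Atp6ap2 passed in 12 of 17 fits, with adjusted p from 0.00031 to 0.075, and lost its call without replicate 2 or 3 of either group.

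A difference between alternative forms within a library cancels any factor common to that library. Atp6v0d2 minus Atp6v0d1 on the log2 scale was 2.35, 2.15 and 2.90 with RANKL alone (mean 2.47 ± 0.39, SD, n = 3) and -0.02, -1.44 and -0.29 with surface proteins (mean -0.58 ± 0.75, SD, n = 3). The groups did not overlap, with p = 0.1 by exact permutation (two-sided), which is as low as 3 libraries against 3 can go. As a share of their summed reads, Atp6v0d2 took between 81.6% and 88.2% with RANKL alone and between 26.9% and 49.7% with surface proteins. Tcirg1 took 81.6%, 83.8% and 84.4% of the summed a subunit reads with RANKL alone and 69.0%, 59.7% and 71.6% with surface proteins (exact permutation p = 0.1). The share of Atp6v0a1 went from between 4.86% and 5.92% to between 17.7% and 27.4%, while that of Atp6v0a2 stayed between 9.89% and 12.9% in both groups. With heat-killed MJ2 the d subunit difference and the share of Tcirg1 lay between those of the other two groups without overlap, and the share of Atp6v0a2, between 11.4% and 14.9%, overlapped both. Atp6v0d2 minus Atp6v0d1 was there 1.39, 1.22 and 1.42 (mean 1.34 ± 0.11, SD, n = 3), and Tcirg1 took 74.7%, 77.1% and 75.7%, each with exact permutation p = 0.1 against RANKL alone and against surface proteins. The depth of these sums was between 1960.1 and 5430.0 adjusted reads for the d subunits and between 2162 and 3336 for the a subunits.

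**Figure D3:**
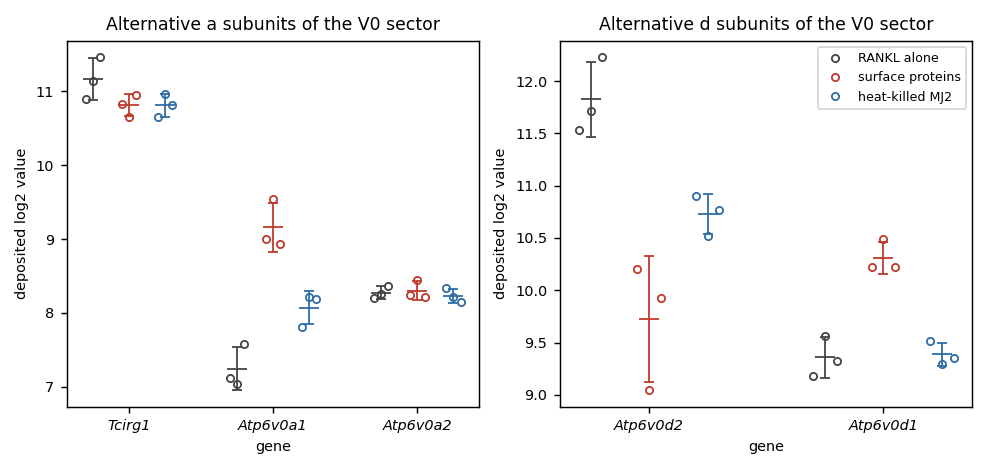
Deposited log2 values of the alternative a subunits (left) and d subunits (right) of the V0 sector by group, where circles are libraries and bars show the mean ± SD of 3 libraries. Atp6v0d2 was highest with RANKL alone and lowest with surface proteins, Atp6v0d1 and Atp6v0a1 were highest with surface proteins, and Atp6v0a2 stayed level.

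Of the 7 cathepsins tested, proteases of the lysosome, 5 increased, beside 15.9% of all rows. The 5 were 3 without replicate 2 of surface proteins, and 4 without its replicate 3 or any 1 library of RANKL alone. Ctsl and Ctsc had the largest log2 fold changes of all members. Ctsl (chr13:64359337-64370890, minus strand), a cysteine protease, rose 8.63-fold, from 568, 842 and 484 adjusted reads with RANKL alone to 4472, 6529.6 and 5126 with surface proteins (log2 fold change 3.11, SE 0.26, adjusted p = 0.00091). Ctsc, which activates serine proteases of immune cells, rose 4.6-fold, from 113, 61.6 and 55.3 to 268, 353 and 411 (log2 fold change 2.20, SE 0.32, adjusted p = 0.0049). Ctsd (chr7:142375911-142388038, minus strand), an aspartic protease, rose 3.22-fold, from 3925, 4843 and 6088 to 12143, 21935 and 14491 (log2 fold change 1.69, SE 0.28, adjusted p = 0.0077). In each of these the surface protein libraries lay above all control libraries, and the 3 calls held in all 17 fits. Ctsb, a cysteine protease, rose from 2968, 4582 and 5155 to 8427, 10808 and 9209 (log2 fold change 1.19, SE 0.24, adjusted p = 0.015), and passed in 16 of 17 fits, with adjusted p from 0.00069 to 0.054, losing its call without replicate 2 of surface proteins. Ctsz, a carboxypeptidase, rose 1.46-fold, from 2292, 2297 and 2260.4 to 3210.4, 3384 and 3389 (log2 fold change 0.54, SE 0.12, adjusted p = 0.022). It passed in 11 of 17 fits, with adjusted p from 0.00056 to 0.068, and of the fits without a library it passed only in the one without replicate 1 of surface proteins. Ctss, which trims antigens for presentation, did not overlap between groups but did not pass (log2 fold change 0.64, SE 0.22, adjusted p = 0.076, 2 of 17 fits passed), and Ctsa, a carboxypeptidase, had a log2 fold change of 0.08 (adjusted p = 0.76). Ctsh had at most 0.024 adjusted reads with RANKL alone, 0, 3.87 and 2.18 with surface proteins and 2.04, 5.86 and 0.975 with heat-killed MJ2, within a few reads of the floor of 3, and no fold is given.

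**Figure D4:**
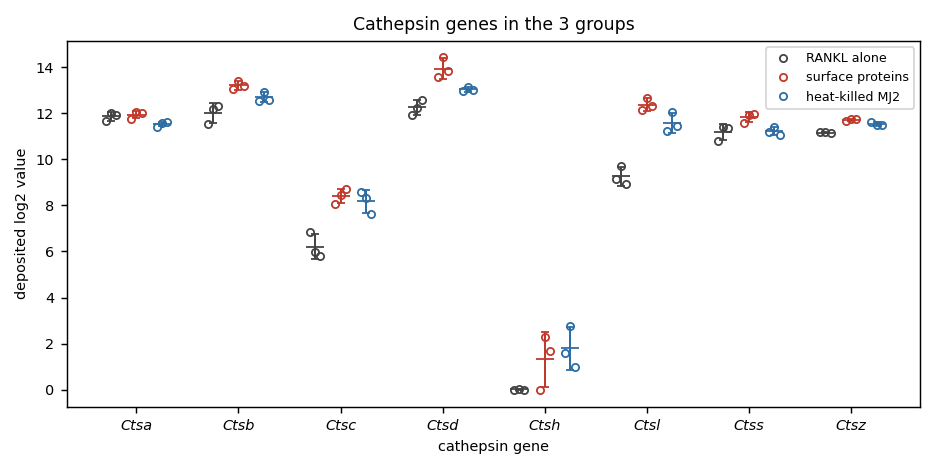
Deposited log2 values of the 8 cathepsin genes by group, where circles are libraries and bars show the mean ± SD of 3 libraries. Ctsl, Ctsc, Ctsd, Ctsb and Ctsz lay higher in every treated library than in every RANKL-alone library, and Ctsh had the lowest values, at or under 2.78 in every library.

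Of the membrane proteins, Npc1, which carries cholesterol out of the lysosome, rose 2.81-fold, from 349, 455 and 421 to 1041, 1311 and 1087 adjusted reads (log2 fold change 1.49, SE 0.17, adjusted p = 0.0025). Lamp2, a major glycoprotein of the lysosomal membrane, rose 2.05-fold, from 1179, 1276 and 1162 to 2303, 2795 and 2334 (log2 fold change 1.03, SE 0.15, adjusted p = 0.0046). Both calls held in all 17 fits. Its relative Lamp1 had 6444, 6316 and 5080.4 with RANKL alone and 6516, 8011 and 7280.4 with surface proteins (log2 fold change 0.29, SE 0.16, adjusted p = 0.23). Mcoln1, the calcium channel TRPML1, had 63.7, 90.6 and 41.5 and 114, 147 and 115 (log2 fold change 0.99, SE 0.30, adjusted p = 0.051), and it passed without replicate 2 of RANKL alone (log2 fold change 1.26, adjusted p = 0.024; 6 of 17 fits passed).

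Of the 7 other hydrolases, 1 decreased, beside 13.2% of all rows, and 6 did not pass the test. Glb1, the beta-galactosidase of the lysosome, fell from 356, 399.9 and 459.8 to 244, 273 and 203 adjusted reads (log2 fold change -0.76, SE 0.18, adjusted p = 0.024), and passed in 12 of 17 fits, with adjusted p from 0.0029 to 0.069, losing its call without replicate 1 or 3 of surface proteins or replicate 2 or 3 of RANKL alone. Gla, alpha-galactosidase A, had 134, 391 and 146 with RANKL alone and 388, 562 and 430.1 with surface proteins, so that the second control library overlapped the treated group (log2 fold change 1.20, SE 0.43, adjusted p = 0.083). Without that library its log2 fold change was 1.69 (adjusted p = 0.0073; 2 of 17 fits passed). Gaa, Hexa, Gusb, Naglu and Lipa did not pass, with log2 fold changes from -0.32 for Naglu to 0.58 for Gaa. Npc2, which hands cholesterol to Npc1, and Psap, the precursor of the saposins, had log2 fold changes of -0.00 (SE 0.15) and -0.03 (SE 0.16).

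Of the transcription factors, Tfeb (chr17:47737030-47792419, plus strand) fell from 74.3, 44.1 and 45.5 adjusted reads with RANKL alone to 11.7, 15.3 and 25.3 with surface proteins (log2 fold change -1.62, SE 0.33, adjusted p = 0.016). The groups did not overlap, and the call held in 16 of 17 fits, with adjusted p from 0.0076 to 0.055, being lost without replicate 2 of surface proteins. Tfe3 had 335, 362 and 300.5 and 382, 358 and 400.4 (log2 fold change 0.20, SE 0.14, adjusted p = 0.34).

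As shares of a library, the 18 pump genes together took 0.835%, 1.03% and 1.15% of adjusted reads with RANKL alone, 0.689%, 0.699% and 0.699% with surface proteins and 0.750%, 0.732% and 0.756% with heat-killed MJ2. The 8 cathepsins took between 0.239% and 0.333% with RANKL alone, between 0.554% and 0.785% with surface proteins and between 0.419% and 0.483% with heat-killed MJ2. Neither treated group overlapped RANKL alone in either share. Over all 41 genes the share was between 1.53% and 2.03% in every library, with overlapping groups.

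**Figure D5:**
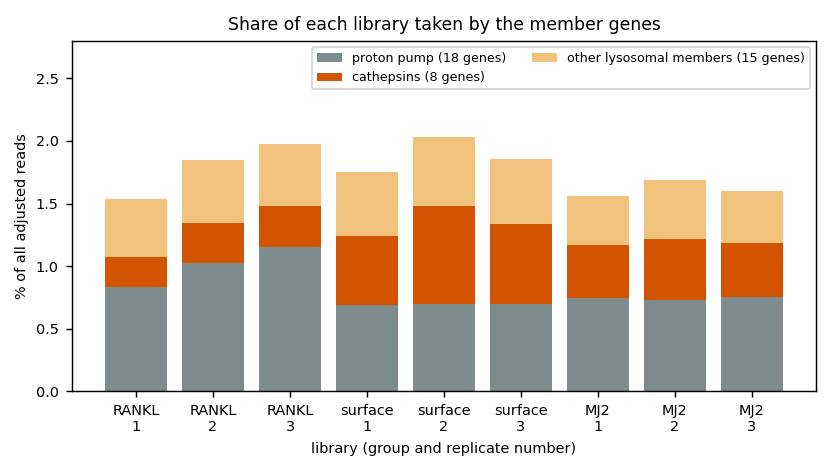
Stacked bars of the percentage of all adjusted reads in each of the 9 libraries taken by the 18 pump genes, the 8 cathepsins and the 15 other lysosomal members. Pump shares were highest with RANKL alone (0.835% to 1.15%) and cathepsin shares highest with surface proteins (0.554% to 0.785%).

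With heat-killed MJ2 fewer members passed the test against RANKL alone. Ctsl and Ctsc increased and Atp6v0d2 and Naglu decreased, 4 of the 40 members tested, where 4.04% of all 10814 rows increased and 1.84% decreased. With a fold change of at least 2 as well, 2 members increased and 1 decreased, beside 3.37% and 0.897% of all rows. The groups did not overlap for 19 of the 40 members and for 30.2% of all rows. This comparison shares its control libraries with the previous one. Ctsl had 2411, 4251 and 2799 adjusted reads with heat-killed MJ2 (log2 fold change 2.32, SE 0.30, adjusted p = 0.012), and Ctsc had 381, 316 and 197 (log2 fold change 1.97, SE 0.36, adjusted p = 0.034), both above all RANKL-alone libraries. Atp6v0d2 fell to 46.8%, with 1907, 1466 and 1744 adjusted reads (log2 fold change -1.09, SE 0.22, adjusted p = 0.044), and Naglu, which removes a sugar from heparan sulfate, fell to 52.8%, from 250.3, 350.2 and 334 to 173, 152 and 163 (log2 fold change -0.92, SE 0.17, adjusted p = 0.036). Ctsl passed in 16 of 17 fits, with adjusted p from 0.0016 to 0.055, losing its call without replicate 3 of heat-killed MJ2, and Ctsc passed in 11 of 17 fits, with adjusted p from 0.00023 to 0.11. Naglu passed in 10 of 17 fits, with adjusted p from 0.0023 to 0.12, and both Ctsc and Naglu passed, of the fits without a library, only in the one without replicate 1 of RANKL alone. Atp6v0d2 passed in 6 of 17 fits, with adjusted p from 0.00067 to 0.13, and lost its call whichever library was left out.

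The pump genes had a median log2 fold change of -0.32 with heat-killed MJ2, beside 0.00 over all rows. Of the 18, 1 decreased and 0 increased, beside 1.84% and 4.04% of all rows. At an unadjusted p under 0.05, 7 pump genes were lower and 1 higher, where 10.6% of all rows were lower and 12.0% higher. The 7 fell to 2 without replicate 3 of RANKL alone and to 4 without any 1 library of heat-killed MJ2, and rose to 11 without replicate 1 of RANKL alone. The higher one was Atp6v0a1, with 224, 295 and 291 adjusted reads (log2 fold change 0.82, SE 0.20, adjusted p = 0.074), and Atp6v0d1 had 729, 629 and 652 (log2 fold change 0.03, SE 0.16, adjusted p = 0.93). All 8 V1 genes had negative log2 fold changes, from -0.63 for Atp6v1a to -0.03 for Atp6v1h, of which none passed (4 at an unadjusted p under 0.05, and from 1 without replicate 3 of RANKL alone to 7 without its replicate 1). That of Atp6v1h was positive without replicate 2 or 3 of RANKL alone or replicate 3 of heat-killed MJ2. The 22 lysosomal genes tested had a median of -0.01. At an unadjusted p under 0.05, 5 of them, all cathepsins, were higher and 3 lower. Without replicate 1 of RANKL alone 3 cathepsins were higher and 1 lower at that threshold, and without any other 1 library 4 were higher. Ctsz lay above all RANKL-alone libraries and did not pass. Ctsd had 7868, 9082 and 8340.0 and Ctsb 5975, 7814 and 6139 adjusted reads, above all RANKL-alone libraries, and did not pass (log2 fold changes 0.79 and 0.68, adjusted p = 0.072 and 0.17). Ctsd passed in 2 of 17 fits, with adjusted p from 0.00095 to 0.18, those with quantile normalization, under which 3 members increased, and with robust, trended eBayes. Tfeb had 27.6, 30.0 and 14.7 (log2 fold change -1.17, SE 0.33, adjusted p = 0.1). The 4 membrane proteins overlapped RANKL alone, with log2 fold changes from -0.33 for Lamp1 to 0.31 for Mcoln1.

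The treated groups were also compared directly. Of the 40 members tested, 10 were higher and 1 lower with surface proteins than with heat-killed MJ2, where 9.21% of all 10916 rows increased and 8.65% decreased. With a fold change of at least 2 as well, 4 increased (Npc1, Gla, Atp6v0a1 and Lamp2) and 0 decreased, beside 5.08% and 4.97% of all rows. The groups did not overlap for 26 members and for 42.3% of all rows. Of the 10 genes, 8 were lysosomal, and the lysosomal genes had a median log2 fold change of 0.61 against 0.03 over all rows and 0.06 over the 18 pump genes. Npc1 had 428, 605 and 362 adjusted reads with heat-killed MJ2, below all libraries with surface proteins (log2 fold change 1.33, SE 0.22, adjusted p = 0.017). Lamp2 had 1222, 1395 and 1079.9 (log2 fold change 1.01, SE 0.16, adjusted p = 0.015), and Lamp1 had 4121, 5363 and 4720.4 (log2 fold change 0.62, SE 0.16, adjusted p = 0.046). Lamp2 passed in 15 of 17 fits, with adjusted p from 1.5e-05 to 0.06, and Lamp1 in 8 of 17 fits, with adjusted p from 0.00046 to 0.14, losing its call under quantile normalization, under equal totals and in 5 of the 6 fits without a library. Mcoln1 did not pass (log2 fold change 0.68, SE 0.19, adjusted p = 0.056).

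Of the cathepsins, Ctsd passed (log2 fold change 0.90, SE 0.24, adjusted p = 0.049), but only in 7 of 17 fits, with adjusted p from 0.014 to 0.14, and under quantile normalization or equal totals no cathepsin did. Ctsl had a log2 fold change of 0.79 (adjusted p = 0.083) and Ctsc of 0.24 (adjusted p = 0.6), and neither passed. Ctsl passed in 3 of 17 fits, with adjusted p from 0.034 to 0.21, among them the fit without replicate 2 of heat-killed MJ2 (log2 fold change 1.03, adjusted p = 0.034). Of the hydrolases, Gla had 149, 286 and 182 adjusted reads with heat-killed MJ2 (log2 fold change 1.19, SE 0.28, adjusted p = 0.035), Lipa, the acid lipase, had 1479, 2218 and 1839.7 (log2 fold change 0.82, SE 0.18, adjusted p = 0.03), Hexa, a hexosaminidase subunit, had 1190.0, 1593 and 1350.2 (log2 fold change 0.67, SE 0.16, adjusted p = 0.036), and Naglu passed with a log2 fold change of 0.61 (adjusted p = 0.049). In the pump, Atp6v0a1 (log2 fold change 1.09, SE 0.22, adjusted p = 0.024) and Atp6v0d1 (log2 fold change 0.92, SE 0.15, adjusted p = 0.014) were higher and Atp6v1b2 was lower (log2 fold change -0.69, SE 0.16, adjusted p = 0.033). Atp6v0d2 lay lower in every library with surface proteins but did not pass (2.01-fold lower, adjusted p = 0.074). Under quantile normalization or equal totals 7 members were higher and 1 lower, the calls of Ctsd, Lamp1 and Naglu being lost, and Naglu passed in 5 of 17 fits, with adjusted p from 0.024 to 0.13. None of the 11 calls held without replicate 1 or replicate 3 of heat-killed MJ2, where fewer of all rows passed as well. Of all rows, 2.01% were higher and 1.47% lower without replicate 1, and 2.35% and 1.66% without replicate 3. Without replicate 1, limma called 0 members, with 15 higher and 1 lower at an unadjusted p under 0.05, and without replicate 3 it called 0, with 15 higher and 2 lower. No share of all rows at the unadjusted threshold is given for these fits. Without replicate 2 of surface proteins, 2 calls (Atp6v0d1 and Lamp2) held, without its replicate 3, 4 held, and without its replicate 1, 6 held. In these fits, in that order, 2.78%, 3.33% and 6.28% of all rows were higher and 3.9%, 4.26% and 7.76% lower.

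Of 88 other genes of the pump and the lysosome, 81 were tested. With surface proteins 16 increased and 13 decreased against RANKL alone, beside 15.9% and 13.2% of all rows. The 16 include Atp6v1c2 and Rragd, which were tested only because their surface protein libraries were high. With heat-killed MJ2 2 increased and 5 decreased, beside 4.04% and 1.84% of all rows. Between the treated groups 17 were higher and 4 lower with surface proteins, beside 9.21% and 8.65% of all rows, and the 17 include Rragd on the same terms. The osteoclast markers Acp5 and Ctsk are among these 88. Acp5, the tartrate-resistant acid phosphatase, had 4955, 6854 and 7423 adjusted reads with RANKL alone, 1332, 525 and 1416 with surface proteins (log2 fold change -2.66, SE 0.41, adjusted p = 0.0063) and 2895, 2692 and 3204 with heat-killed MJ2 (log2 fold change -1.11, SE 0.19, adjusted p = 0.029). Ctsk, the collagen-degrading cathepsin K, had 6543, 7584 and 11182 with RANKL alone, 3258, 2861 and 3752 with surface proteins (log2 fold change -1.33, SE 0.24, adjusted p = 0.01) and 5559.5, 5238 and 5389 with heat-killed MJ2 (log2 fold change -0.61, SE 0.22, adjusted p = 0.17). Between the treated groups, Acp5 (log2 fold change -1.55, SE 0.39, adjusted p = 0.043) and Ctsk (log2 fold change -0.72, SE 0.15, adjusted p = 0.026) were lower with surface proteins, where Acp5 passed in 10 of 17 fits, with adjusted p from 0.021 to 0.12, and Ctsk in 12 of 17 fits, with adjusted p from 0.0001 to 0.09. Of the fits without a library, Acp5 kept that call only in the one without replicate 2 of surface proteins, and Ctsk lost it without replicate 1 or 2 of surface proteins or replicate 1 or 3 of heat-killed MJ2. Ctsk therefore fell with surface proteins while the member cathepsins Ctsl, Ctsc, Ctsd, Ctsb and Ctsz rose. Ctse, an aspartic protease of endosomes, rose with surface proteins, from 25.2, 14.1 and 15.8 to 104, 179 and 140.1 (log2 fold change 2.88, SE 0.29, adjusted p = 0.0017), and was above heat-killed MJ2 as well (log2 fold change 1.73, SE 0.26, adjusted p = 0.013). With heat-killed MJ2 Ctse had a log2 fold change of 1.15 against RANKL alone and did not pass. It passed in limma without replicate 1 of RANKL alone (log2 fold change 1.385, adjusted p = 0.044).

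Among the partners of acid secretion, Car2, the carbonic anhydrase that supplies protons to the pump, fell from 6788, 4189.8 and 4005 with RANKL alone to 1286, 900.4 and 1369 with surface proteins (log2 fold change -2.05, SE 0.27, adjusted p = 0.0039), and had 5540.3, 4132 and 6557 with heat-killed MJ2 (log2 fold change 0.13, SE 0.27, adjusted p = 0.82). The difference between the treated groups passed in all 17 fits (log2 fold change -2.19, SE 0.25, adjusted p = 0.0073). Clcn7, the chloride-proton exchanger, and Ostm1, its beta subunit, did not pass against RANKL alone, with log2 fold changes of -0.02 and 0.43 for surface proteins and -0.21 and -0.24 for heat-killed MJ2, nor between the treated groups (0.20 and 0.67). Ostm1 passed between the treated groups in limma without replicate 1 of surface proteins (log2 fold change 0.87, adjusted p = 0.026). Atp6v1c2, a C subunit form, had 0.856, 3.34 and 10.9 with RANKL alone, 51.9, 50.1 and 48.0 with surface proteins and 17.4, 0 and 10.8 with heat-killed MJ2. It passed the filter against RANKL alone only because its surface protein libraries were high, so these values are a description and no test is given. The hydrolase Sgsh, a sulfatase acting on heparan sulfate, fell from 224, 217 and 222 to 109.6, 58.5 and 63.8 with surface proteins (log2 fold change -1.56, SE 0.25, adjusted p = 0.0075) and to 99.2, 96.7 and 119 with heat-killed MJ2 (log2 fold change -1.07, SE 0.14, adjusted p = 0.012). Gm2a, the GM2 activator, fell with heat-killed MJ2 from 874, 972 and 1030.1 to 424, 341 and 466 (log2 fold change -1.23, SE 0.17, adjusted p = 0.014). Slc11a1, the metal transporter NRAMP1 of macrophage lysosomes, rose from 215, 245 and 214 with RANKL alone to 589, 550.4 and 503 with heat-killed MJ2 (log2 fold change 1.28, SE 0.14, adjusted p = 0.0071), and had 1017, 1355 and 1095 with surface proteins.

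Of the factors related to Tfeb and the nutrient-sensing proteins on the lysosome, Mitf fell from 1332, 1595 and 1441 with RANKL alone to 613, 591 and 651 with surface proteins (log2 fold change -1.23, SE 0.14, adjusted p = 0.0024) and 748, 759.6 and 784 with heat-killed MJ2 (log2 fold change -0.93, SE 0.13, adjusted p = 0.017), and it did not pass between the treated groups (log2 fold change -0.30, SE 0.12, adjusted p = 0.13). Rragd, a Rag GTPase that passed the filter through its surface protein libraries alone, was at or under 1.04 adjusted reads in all other libraries and had 10.8, 12.6 and 21.5 with surface proteins, at least 4.98-fold higher than a group floor of 3 reads. Fnip2, a partner of folliculin, had 671, 1035 and 539.8 with RANKL alone, 1206, 1720.0 and 1255 with surface proteins and 555, 684 and 485 with heat-killed MJ2, and differed between the treated groups (log2 fold change 1.27, SE 0.21, adjusted p = 0.016). The surface protein calls of Acp5, Ctsk, Ctse, Car2, Sgsh and Mitf against RANKL alone passed in all 17 fits. With heat-killed MJ2, Gm2a and Slc11a1 lost their calls without its replicate 1 and Sgsh without its replicate 1 or 2. Mitf lost its call there without any 1 of the heat-killed MJ2 replicates or replicate 3 of RANKL alone, and Acp5 kept it, of the fits without a library, only in the one without replicate 1 of RANKL alone. Between the treated groups, Fnip2 lost its call without replicate 1 or 3 of heat-killed MJ2. Adjusted p of these heat-killed MJ2 and Fnip2 calls reached at most 0.11 under the alternatives run.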

How the data were processed

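RNA was read from the 3′ end (QuantSeq, 75-base single-end reads) in 9 libraries. The authors deposited log2 values of scaled reads plus 1, 1 per gene and library. The submitters' processing notes name Bowtie2, bedtools and mm10 without versions. The study's methods state quantile normalization, yet values at the same rank differed between libraries by as much as 1.601 (log2). Counting, annotation and strand use are not given in the sources used here, and reads of overlapping genes and close copies can be shared. The design planned for counts, and limma was used because the files hold log2 values.

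Adjusted reads are 2 to the deposited value minus 1, and they summed to between 5930926 and 6503682 per library. Raw depth is unknown, so no counting intervals are given. Of the 6 libraries in a comparison, 3 or more had to reach 10 adjusted reads for a row to be tested, which was done with limma 3.58.1 (R 4.3.3, lmFit and eBayes) on the deposited values, with Benjamini-Hochberg adjustment over all rows tested and a threshold of 0.05. Fold changes are on the log2(reads + 1) scale, which understates changes of low genes. Subunit differences within libraries were compared with exact two-sided permutation tests (scipy 1.17.1), for which p = 0.1 is the smallest possible. The fit was tested on simulated data in which it called 57 of 100 genes changed 2-fold and 86 of 100 changed 4-fold for surface proteins against RANKL alone. The changed genes were drawn from those with higher control values. Of the 10624 rows tested there, 10424 were unchanged, of which 8 were called. More rows passed in the data, so these rates need not hold there. Members and gene lists were chosen by symbol with earlier results of these data known. All members were described, and of the other pathway genes up to 3 were named in each direction and comparison, those with the largest changes among genes past the threshold, changed at least 2-fold and without overlap of the groups, with Ctsk, Acp5, Mitf, Clcn7 and Ostm1 always named. Loci are from GENCODE M21 and promoters from RefSeq, both on GRCm38. The alternatives were other scalings, filters, constants and fits, and each library left out in turn.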

Additional observations from a re-analysis of the deposited data

How the results depend on the processing

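No named gene changed direction between the main test and an alternative where it passed in either. Fold changes near 0 of genes that did not pass could change sign, as that of Atp6v1h did with heat-killed MJ2. The within-library differences of the d subunits and the shares of Tcirg1, whose exact tests could not pass the threshold in this design, kept their direction. Under the fit with a replicate block, members that decreased with surface proteins went from 7 to 4 and those that increased from 9 to 10. Beside them, 10.1% of all rows decreased and 13.1% increased. Members called with heat-killed MJ2 went from 2 higher and 2 lower to 2 and 0, beside 2.32% and 0.351% of all rows. At an unadjusted p under 0.05 in limma, 11 were lower. Members higher with surface proteins than with heat-killed MJ2 went from 10 to 6, beside 6.33% of all rows. Replicate numbers were not taken to pair the libraries in the main test, although every library correlated best with its own number. Deviations of same-numbered libraries correlated at r = 0.018 to 0.106, with only replicate 2 of RANKL alone and heat-killed MJ2 above 0.1. Those of differently numbered libraries correlated at r = -0.076 to 0.031, so calls lost under the block are uncertain. With surface proteins against RANKL alone, Atp6ap2, Atp6v1a, Ctsz and Glb1 lost their calls there, and Gla and Mcoln1 gained them. With heat-killed MJ2, Atp6v0d2 and Naglu lost theirs. With a 2-fold requirement as well, 3 members decreased with surface proteins, 1 decreased with heat-killed MJ2, and 4 were higher and 0 lower between the treated groups. With unadjusted p and 2-fold, 3 decreased with surface proteins and 4 were higher between the treated groups. Without a filter on low values, 1 member increased and 0 decreased with heat-killed MJ2, beside 1.77% and 0.748% of all rows. Between the treated groups 3 were higher and 0 lower, beside 3.92% and 3.7%. At an unadjusted p under 0.05 in limma, 11 and 4 were lower in these fits. A filter in every library gave 2 lower between the treated groups, beside 10.6% of all rows. Equal totals, or a constant of 0.1, left 1 lower with heat-killed MJ2, beside 1.48% and 1.44% of all rows. Robust, trended eBayes gave 5 higher and 10 lower with heat-killed MJ2, beside 7.47% and 5.69% of all rows. Between the treated groups it gave 19 higher and 4 lower, beside 14.8% and 13.6%. Leaving out 1 library at a time gave 7 to 10 higher and 3 to 7 lower with surface proteins, 0 to 2 higher and 0 to 1 lower with heat-killed MJ2, and 0 to 9 higher and 0 to 1 lower between the treated groups. Of all rows, 9.1% to 13.9% were higher and 7.6% to 11.9% lower with surface proteins in these fits. With heat-killed MJ2 the shares were 0.596% to 2.86% and 0.17% to 0.646%, and between the treated groups 2.01% to 9.32% and 1.47% to 7.76%. With heat-killed MJ2 the 0 calls without its replicate 3 stood beside 5 higher and 7 lower at an unadjusted p under 0.05. The cause was not tested. With 3 libraries a group, no exact test could fall below p = 0.1.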
